A study of Arabidopsis thaliana with 12 samples.

Results

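Among the features of an Arabidopsis thaliana seedling count table, 122 transposon and pseudogene loci with a dot and a number at the end of their identifier gathered 100 or more raw counts over 12 RNA sequencing libraries. The table holds 33330 features, of which 3911 carry such a suffix and 880 of those had any count. The 122 loci held 292803 of the 299429 counts of all suffixed features, or 97.8%. The loci were chosen by their raw counts summed over all 12 libraries, so those sums are given as a description only. All 122 passed the filter on low counts over the 4 groups. The reference annotation classes 120 of them as pseudogenes, names 8 as Sadhu elements, 7 as MUSTANG genes and 1 as CYTOSLEEPER, describes 3 others by similarity (a Ulp1 protease, a non-LTR retroelement protein and a replication protein A1), and gives no description for the other 103.

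The seedlings were 6 days old and grew at 22 °C in 16 h light and 8 h dark. Plants of the wild type (WT) and of a genotype labelled hd2b hd2c were left at that temperature (normal) or kept at 44 °C for 3 h (heat), which makes 4 groups of 3 libraries of total RNA. The name hd2b hd2c stands for lesions in HD2B and HD2C, plant-specific histone deacetylases of the HD2 family. The sources used here do not state what the alleles are, how many independent lines were used or whether replicates came from separate cultures. The p-values therefore reflect the spread among libraries, which may be technical.

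Most transposon copies in a plant genome are kept silent by DNA methylation and repressive histone marks, which are laid down by maintenance methyltransferases and by a pathway that small RNAs guide. Retrotransposons with long terminal repeats (LTRs) are transcribed from a promoter in the left repeat, and reverse transcription starts at a primer binding site just inside it, where the 3′ end of a transfer RNA pairs. Some Arabidopsis LTR families, ONSEN being the best known, carry heat-responsive elements in their repeats and are transcribed in heat stress. Sadhu elements are short retroposons without a coding region whose silencing varies between copies. MUSTANG genes derive from Mutator-like transposases and are regarded as domesticated host genes.

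The following sequences of the TAIR10.1 reference (RefSeq) belong to the loci on which the comparisons turn. They were read at the locus of the same identifier in the TAIR10.1 annotation. The first is the beginning of the left one of a pair of direct repeats that flank AT1G48710.1, at chr1:18013162-18013461 on the plus strand, with paired heat shock element units, written TTCNNGAA, in capitals.
AT1G48710.1: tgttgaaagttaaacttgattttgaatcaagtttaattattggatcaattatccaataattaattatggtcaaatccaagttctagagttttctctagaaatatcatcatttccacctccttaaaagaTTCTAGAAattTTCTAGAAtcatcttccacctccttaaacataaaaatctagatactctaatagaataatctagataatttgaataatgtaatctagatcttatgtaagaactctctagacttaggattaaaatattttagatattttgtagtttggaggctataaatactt
The second is the start window of AT2G04460.1, 250 bases before to 50 after its start, at chr2:1548950-1549249 on the minus strand, in capitals GAANNTTCNNGAA and GAANNTTC.
AT2G04460.1: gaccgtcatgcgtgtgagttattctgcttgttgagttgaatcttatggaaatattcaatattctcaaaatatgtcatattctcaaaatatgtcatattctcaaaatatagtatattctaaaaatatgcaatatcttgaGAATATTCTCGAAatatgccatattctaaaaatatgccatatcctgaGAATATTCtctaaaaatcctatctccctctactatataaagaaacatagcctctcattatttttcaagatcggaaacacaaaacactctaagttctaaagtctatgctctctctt
The next 3 are start windows with TGGTATCAGAGC in capitals, the letters that pair with the 3′ end, CCA included, of the initiator methionine transfer RNA (the end shared by 8 of 12 annotated methionine transfer RNA genes that begin with A). They are at chr4:9488348-9488647 on the minus strand, chr2:5074134-5074433 on the plus strand and chr2:2935989-2936288 on the plus strand.
AT4G16870.1: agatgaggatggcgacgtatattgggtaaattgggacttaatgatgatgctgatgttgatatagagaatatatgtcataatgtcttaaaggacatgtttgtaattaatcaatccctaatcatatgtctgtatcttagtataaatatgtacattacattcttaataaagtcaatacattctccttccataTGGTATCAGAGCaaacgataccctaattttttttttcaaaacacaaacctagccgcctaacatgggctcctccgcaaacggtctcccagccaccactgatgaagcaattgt
AT2G12490.1: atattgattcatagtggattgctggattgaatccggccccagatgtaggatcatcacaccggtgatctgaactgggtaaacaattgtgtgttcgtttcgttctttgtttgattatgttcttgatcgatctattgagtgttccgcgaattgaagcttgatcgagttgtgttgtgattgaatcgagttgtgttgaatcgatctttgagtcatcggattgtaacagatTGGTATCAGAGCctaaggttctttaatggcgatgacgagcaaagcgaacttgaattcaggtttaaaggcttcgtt
AT2G07080.1: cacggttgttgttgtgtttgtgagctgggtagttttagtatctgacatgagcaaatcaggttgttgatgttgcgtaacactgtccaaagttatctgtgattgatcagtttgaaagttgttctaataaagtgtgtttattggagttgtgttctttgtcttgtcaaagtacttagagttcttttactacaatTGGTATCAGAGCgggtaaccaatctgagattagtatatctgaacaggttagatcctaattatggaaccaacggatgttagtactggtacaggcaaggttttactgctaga
The last is the start window of AT2G04135.1, a locus with few counts at normal temperature, at chr2:1392889-1393188 on the minus strand, which held none of the motifs searched.
AT2G04135.1: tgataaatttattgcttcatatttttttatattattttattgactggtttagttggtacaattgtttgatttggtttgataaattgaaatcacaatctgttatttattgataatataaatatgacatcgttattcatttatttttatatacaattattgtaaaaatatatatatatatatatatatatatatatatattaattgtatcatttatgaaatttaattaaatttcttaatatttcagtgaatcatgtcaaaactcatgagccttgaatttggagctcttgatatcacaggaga

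TGGTATCAGAGC, searched on both strands, was found in the start window of 19 of the 122 loci (15.6%), of 5.74% of 3903 suffixed features with a window and of 0.725% of 32833 windows of all features. It was a more frequent word among the counted loci than among all loci, as a description. TTCNNGAA was in the windows of 13 loci (10.7%, against 9.27% of all windows) and GAANNTTC in 20 (16.4% against 11.3%), shares near those of all features. The longer GAANNTTCNNGAA, which contains the other pair, was in 2 loci (1.64% against 0.463%). Direct repeats of 103 to 1235 bases lay on either side of the centre of 31 of the loci, not always outside the locus. Of these 31, 17 also held TGGTATCAGAGC in the start window. The repeats of AT1G48710.1 were 748 bases long and 99.6% identical to each other, with 3 copies of TTCNNGAA in each, of which the stretch printed holds 2. AT4G16910.1 was the other locus with 3 copies in each repeat, and it was not called with heat in either genotype.

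Totals of counts per library ran from 7737285 to 24030931. Library hd2b hd2c heat 2 stood apart, being the smallest, with 11.2% of its counts in ribosomal RNA, against 0.734% to 5.02% in the others. The summed level of 4 markers of green tissue lay at 17827 to 28705 CPM (counts relative to the scaled library total) in the normal libraries and at 93318 to 242588 CPM in the heat libraries, while that of 3 root markers was 7.39 to 14.8 CPM at normal temperature and 0.691 to 3.62 CPM after heat. The summed CPM of 3 seed storage genes stayed between 0 and 4.03 in every library, with 1 of them at 0 throughout WT heat. These shifts touch every heat comparison of the loci, and their part in those results was not tested. HD2B was at 40.0 and 85.8 CPM in WT normal and heat and at 23.8 and 18.6 CPM in the libraries labelled hd2b hd2c. HD2C was at 37.3 and 149 CPM in WT but at 98.1 and 324 CPM in those libraries, so the label is not borne out for HD2C transcript level, and directions given for genotype are those of the libraries labelled hd2b hd2c.

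The 122 loci held a much smaller part of the RNA after heat than before it. Their share of all counts was 0.215% to 0.243% in the 6 normal libraries and 0.0351% to 0.0619% in the 6 heat libraries. In CPM after TMM scaling (trimmed mean of M values), which discounts the few very abundant transcripts of the heat libraries, the sum was 1368, 1454 and 1326 in WT normal and 662, 689 and 677 in WT heat. In the libraries labelled hd2b hd2c it was 1389, 1376 and 1244 at normal temperature and 841, 894 and 833 after heat. The heat libraries thus lay below the normal libraries in both genotypes without overlap. After TMM scaling the hd2b hd2c heat libraries lay above the WT heat libraries, while the normal groups overlapped. In share of all counts the heat groups overlapped too, with hd2b hd2c heat 2 at 0.0379% and the WT heat libraries at 0.0351% to 0.0415%. In bulk seedlings, fewer cells that transcribe a locus and less RNA of it per cell cannot be told apart. Because a normal library gave 25362 to 51890 counts of the loci and a heat library 2933 to 14565, the choice by summed counts leans on the normal libraries.

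**Figure D1:**
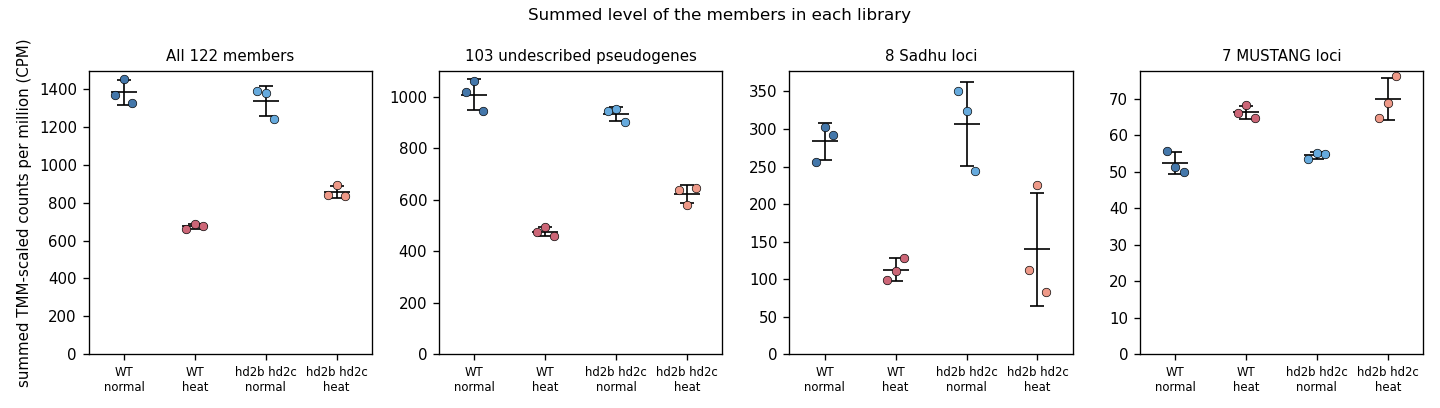
Summed TMM-scaled CPM of all 122 loci, of the 103 without description, of the 8 Sadhu and of the 7 MUSTANG loci, by library (points), with the mean and SD of 3 libraries per group (lines). All loci together fall from 1326 to 1454 CPM in WT normal to 662 to 689 CPM in WT heat, whereas the MUSTANG loci lie at 50.1 to 55.7 CPM before and 64.7 to 68.2 CPM after heat.

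A handful of loci carried most of these counts. The top 3 held 44.4% and the top 10 held 64.8% of all counts of the loci, while the median locus had 581.5 counts in total and 77 loci had fewer than 1000. SADHU1-1 (AT2G10410.1), a Sadhu element on chromosome 2, was the most abundant per length in each group, at 240 CPM per kb in WT normal and 98.8 in WT heat. AT2G07080.1 followed in WT normal at 92.9 CPM per kb, ahead of AT2G11240.1 at 32.5 and AT1G35612.1, the Ulp1 protease pseudogene, at 30.7. After heat the order changed: AT2G04135.1, at 0.389 CPM per kb in WT normal, stood next to SADHU1-1 with 23.2 CPM per kb in WT heat and 37.1 in the heat libraries labelled hd2b hd2c, and AT2G07080.1 was at 6.00 and 4.41.

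Heat lowered many more of the loci than it raised, in both genotypes. In WT, 13 loci were higher after heat, 58 were lower and 51 did not pass the test, beside 31.0% of all 20232 tested features called higher and 34.8% called lower. The median log2 fold change of the loci was −1.04, against −0.14 for all tested features. In the libraries labelled hd2b hd2c, 14 were higher, 55 lower and 53 not called, beside 29.9% and 31.5% of all features, and the medians were −0.69 and −0.12. Loci at 0 in a group did not move either median, which was the same with them set to their bound. Without any overlap between the 3 heat and 3 normal libraries, 14 loci were higher and 69 lower in WT (33.1% and 37.7% of all features), and 15 were higher and 57 lower in hd2b hd2c (30.5% and 35.8%). The heat comparisons of WT and of hd2b hd2c have no library in common: 10 loci were called higher in both (of 13 and of 14), 47 lower in both (of 58 and of 55), and 40 in neither, beside 27.1%, 27.2% and 27.1% of all features. Scaled by library totals alone, which moves the median of all features to −1.67 in WT and −1.56 in hd2b hd2c, the calls became 3 higher and 104 lower in WT, beside 5.10% and 79.1% of all features, and 4 higher and 99 lower in hd2b hd2c, beside 4.79% and 78.2%, and the median of the loci became −2.57 and −2.09. Of the loci called higher under TMM, 3 of 13 in WT and 4 of 14 in hd2b hd2c were still called higher under library totals, and 4 in each were called lower.

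**Figure D2:**
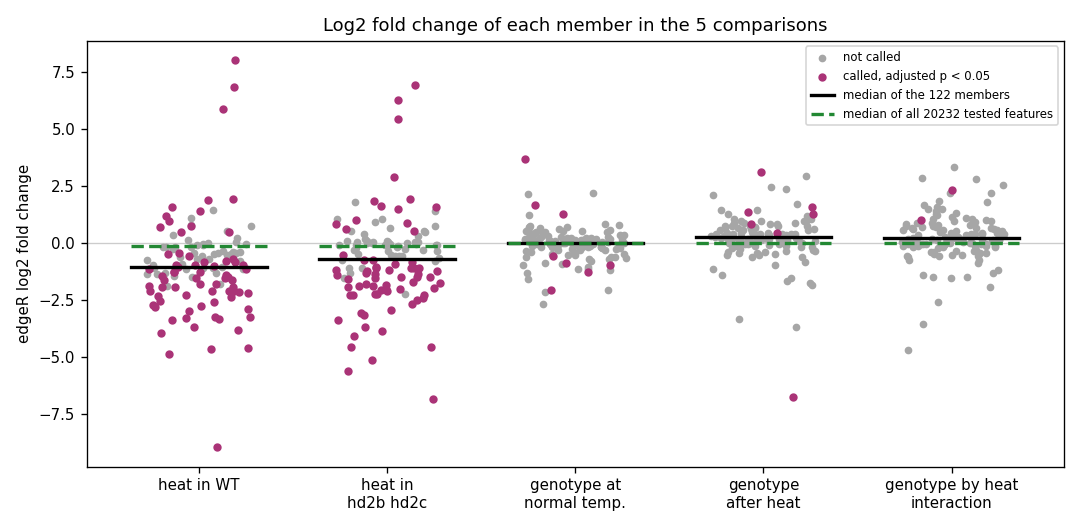
Log2 fold change (edgeR) of each of the 122 loci in the 5 comparisons, with called loci in purple, the median of the loci as a solid line and that of all 20232 tested features as a dashed line. In WT the loci have a median of −1.04 and all features −0.14, whereas in the genotype comparison at normal temperature both medians lie near 0.

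AT2G07080.1, one of the 3 most abundant loci, has the primer site in its start window and nearly lost its signal in heat. It was at 253, 259 and 210 CPM in WT normal and at 14.1, 18.8 and 13.7 in WT heat, and in the other genotype at 161, 166 and 162 before and 9.23, 11.9 and 13.1 after heat. Every heat library was far below every normal library, and the WT normal libraries were all above the hd2b hd2c normal ones. Its log2 fold change with heat was −3.96 (SE 0.152, adjusted p 3.62e-16) in WT and −3.84 (SE 0.157, adjusted p 1.2e-15) in hd2b hd2c. Here and below, SE is the standard error of a log2 fold change and an adjusted p is the edgeR quasi-likelihood p adjusted by Benjamini-Hochberg over all tested features. Near-identical pseudogenes (90% identity or more) match a large part of its length, but 3 that cover over 50% of it had 0 counts.

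Other loci were also far lower after heat. AT2G11880.1 had 140, 46 and 70 counts in WT normal and 0 in all WT heat libraries, at least 37.0-fold lower when the group is set to the floor of 3 counts. In the other genotype it had 37, 33 and 79 counts at normal temperature and 0, 0 and 1 after heat, a 60.5-fold lower level (exact 95% interval 10.7 to 2410, counting error only). AT1G11150.1 went from 11.3, 12.3 and 13.2 CPM to 0.0768, 1.15 and 0.335 in WT, a log2 change of −4.60 (SE 0.385). The hd2b hd2c libraries went from 13.5, 12.5 and 11.2 to 1.40, 0.305 and 0.743, or −3.66 (SE 0.352). For each of these loci the heat and normal libraries did not overlap in either genotype. AT5G35777.1 fell by 4.66 in WT and by 4.05 in hd2b hd2c on the log2 scale, from 5.63 to 10.1 CPM in normal to 0 to 0.789 in heat libraries. AT5G38230.1 had 53 counts over WT normal and 2 over WT heat (11.5-fold lower, 3.03 to 97.4), and 62 and 0 in hd2b hd2c, at least 8.40-fold lower. AT2G12020.1 had 203 counts over WT normal and 3 over WT heat (29.4-fold lower, 9.90 to 144), AT5G28415.1 had 73 and 2 (15.8-fold, 4.23 to 133) and AT5G19097.1 had 52 and 2 (11.3-fold, 2.97 to 95.6). In hd2b hd2c AT2G12020.1 fell from 94 counts to 6, whereas AT5G28415.1 had 70 and 12 and AT5G19097.1 had 62 and 16, with overlapping groups and no call (adjusted p 0.122 and 0.525). AT1G35115.1 fell from 14.2 to 26.3 CPM to 1.09 to 1.92 in WT and from 9.01 to 14.6 to 0.305 to 0.515 in hd2b hd2c, −3.68 (SE 0.289) and −4.57 (SE 0.371) on the log2 scale. AT3G44205.1 was at −3.32 (SE 0.755) in WT and −2.92 (SE 0.788) in hd2b hd2c, both called. AT3G44420.2 was called in hd2b hd2c (−3.37, SE 0.905) but not in WT (−1.43, SE 0.709, adjusted p 0.0812). In hd2b hd2c, AT4G08100.1 had 26 counts before and 1 after heat (10.6-fold lower, 1.74 to 433), a call that was lost in 6 of 12 fits with a library left out, whichever hd2b hd2c heat library or hd2b hd2c normal 1 or 2 or WT normal 1 was left out (highest adjusted p 0.171).

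Against this decline a few loci went from almost no reads to a clear signal. AT2G04135.1 had 11, 5 and 12 counts in WT normal and 250, 238 and 232 in WT heat. The hd2b hd2c libraries had 11, 7 and 7 counts at normal temperature and 542, 53 and 813 after heat. All heat libraries were well above all normal ones; the 53 counts come from the small library hd2b hd2c heat 2, where they equal 16.2 CPM beside 32.9 and 46.5 in the other two. The log2 fold change was 5.86 (SE 0.337) in WT and 6.90 (SE 0.338) in hd2b hd2c. These values are a description, because the locus passed the rule only through the heat libraries. Near-identical sequence covers this locus along its whole length, of which the 2 features that match 82.6% of it had 6 and 0 counts in all.

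AT1G48710.1, whose flanking repeat is printed above, had no read in WT normal and 21, 21 and 14 counts in WT heat. Those labelled hd2b hd2c had 0, 0 and 2 counts before heat and 14, 5 and 23 after. Heat and normal libraries were apart in both genotypes, by at least 43.0-fold in WT against the floor of 3 counts, and by 51.7-fold (13.4 to 441) in hd2b hd2c. Its 100 counts place it exactly at the threshold, and 56 of them came from WT heat and 42 from hd2b hd2c heat. It passed the rule only through the heat libraries, as did AT2G04135.1 and AT1G30390.1. The choice of these loci is therefore not independent of their rise, which is given as a description. The 7 suffixed features that match 96.1% to 100% of AT1G48710.1 at 97.5% to 99.4% identity cannot be told from it where reads align in several places. Summed with them it had 9 counts in WT normal, 128 in WT heat and, in the other genotype, 14 before and 95 after heat. A coding gene that contains another copy was left out of that sum.

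AT1G30390.1 had 2, 0 and 0 counts in WT normal and 41, 27 and 55 in WT heat, a 142-fold higher level (38.4 to 1180). In hd2b hd2c it had 0, 2 and 2 counts and then 56, 5 and 98, or 6.27 on the log2 scale (SE 0.679). The locus lies 206 bases from the end of PSAK (AT1G30380), a photosystem I subunit gene on the same strand with 1347 CPM in WT normal and 4809 in WT heat, whose part in these counts was not tested. AT3G47875.1 rose from 0.425 to 1.26 CPM to 2.38 to 3.43 in WT, or 1.91 (SE 0.487, adjusted p 0.00158), and by 2.88 (SE 0.497) in hd2b hd2c. Under library totals its call was lost in WT (adjusted p 0.569). Its neighbour AT3G47890, 35 bases away on the same strand, was at −1.97 and −1.34 in the same comparisons.

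**Figure D3:**
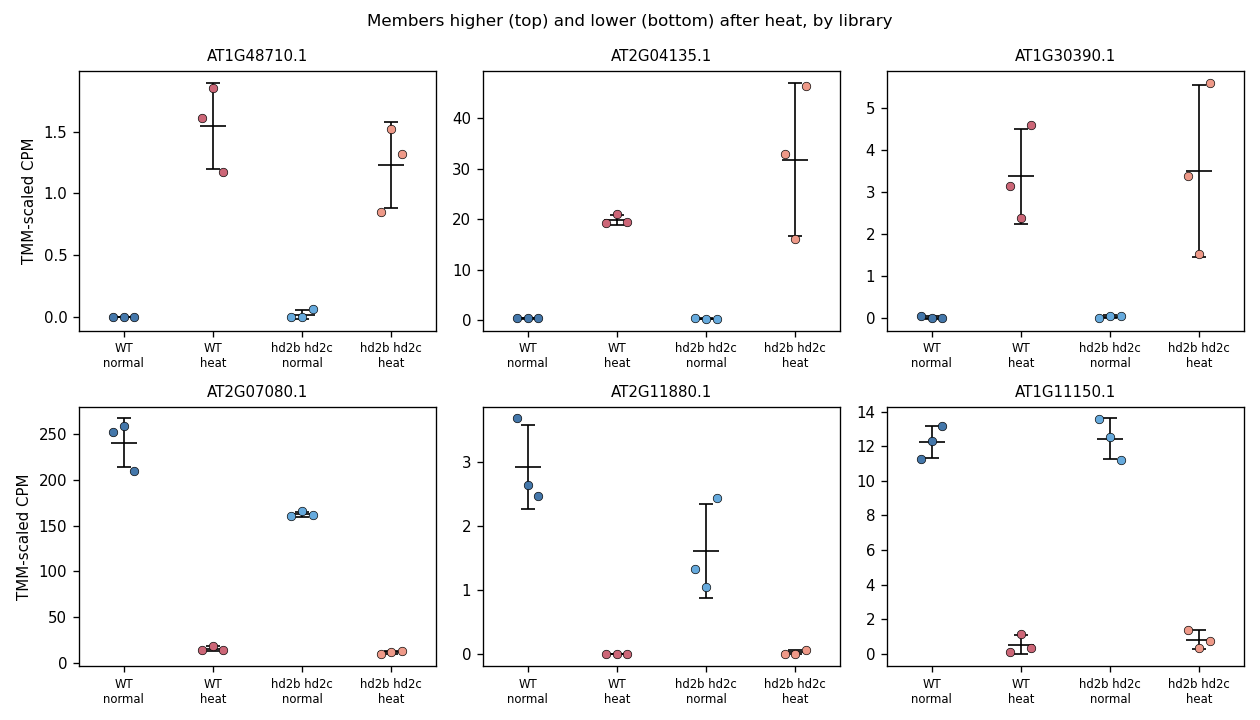
TMM-scaled CPM of 3 loci higher after heat (top) and 3 lower after heat (bottom), by library (points), with the mean and SD of 3 libraries per group (lines). AT1G48710.1 is at 0 in the WT normal libraries and at 1.17 to 1.85 CPM in WT heat, whereas AT2G07080.1 goes from 210 to 259 CPM to 13.7 to 18.8 CPM.

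A trio of related pseudogenes, AT5G14830.1, AT3G10100.1 and AT4G20730.1, was also called higher after heat in both genotypes. Their log2 fold changes in WT were 1.19 (SE 0.280), 1.88 (SE 0.405) and 1.55 (SE 0.596), and in hd2b hd2c they were 0.82 (SE 0.270), 1.84 (SE 0.385) and 1.49 (SE 0.545). AT4G20730.1 lost its call in WT without WT normal 3 or WT heat 3 (highest adjusted p 0.176) and in hd2b hd2c without hd2b hd2c normal 1 or heat 2 (0.219), and AT5G14830.1 in hd2b hd2c without hd2b hd2c normal 2 (0.0561). Under library totals alone none of the trio was called, and the value of AT5G14830.1 turned to −0.34 in WT and −0.63 in hd2b hd2c and that of AT4G20730.1 to −0.0101 in WT and −0.0888 in hd2b hd2c. The coding gene ASY2 (AT4G32200), with 1157 counts in all, matches 100% of AT3G10100.1 at 91.3% identity and 100% of AT4G20730.1 at 93.5%. AT3G10100.1 and AT4G20730.1 also match each other, so their reads may not be separable. The part of these copies in their counts was not tested. The abundant AT5G55896.1 was at 28.9 to 33.5 CPM in WT normal and 47.3 to 54.4 in WT heat, 0.74 (SE 0.133, adjusted p 4.26e-05), and 1.01 (SE 0.134) in hd2b hd2c, but turned to −0.79 and −0.49 under library totals. AT5G27895.1 (1.63, SE 0.396), AT5G41710.1 (1.92, SE 0.699) and AT3G28945.1 (1.57, SE 0.510) were called higher in hd2b hd2c, none of them under library totals (adjusted p 0.704, 0.495 and 0.771), and the second not without hd2b hd2c normal 1 or 3 or heat 1 or 3 (highest adjusted p 0.0994). AT5G41710.1 lies 301 bases from UBC8 (AT5G41700) on the same strand, at 321 CPM in hd2b hd2c normal and 776 in hd2b hd2c heat. AT3G28945.1 lies 160 bases from AT3G28950 (6.09 and 9.46 CPM in those groups) and 414 from AT3G28940 (121 and 210 CPM), both on its strand. The part of these neighbours in the counts was not tested. AT1G21260.1 was called in WT (0.94, SE 0.352), not without WT normal 3 or WT heat 2 (0.115), and its value was −0.59 under library totals.

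AT2G04460.1, with the longer heat shock element in its start window, was called higher after heat in WT. It was at 2.66, 2.98 and 2.37 CPM in WT normal and at 5.30, 4.94 and 10.6 in WT heat, and in the other genotype at 3.15, 4.33 and 4.15 before and 2.79, 4.27 and 4.12 after heat. Only the WT groups were apart; in hd2b hd2c the groups overlapped. The heat change was 1.39 (SE 0.293, adjusted p 0.000252) in WT, which turned to −0.18 under library totals, and −0.11 (SE 0.306, adjusted p 0.781) in hd2b hd2c, and the difference between them did not pass the interaction test (−1.49, SE 0.423, adjusted p 0.169). The other locus with that element, AT3G62455.1, was called lower after heat in both genotypes, also with each library left out. It went from 1.72 to 3.45 CPM to 0.168 to 0.706 in WT, and from 3.91 to 4.58 to 0.789 to 1.37 in hd2b hd2c.

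Sadhu elements fell together. In WT 7 of 8 were lower after heat and none higher (median log2 fold change −1.86), and in hd2b hd2c all 8 were lower (median −1.98), with the same direction for every one under each scaling tried. Of all tested features, 31.0% were called higher and 34.8% lower in WT (median −0.14), and 29.9% and 31.5% in hd2b hd2c (median −0.12). The medians of all 122 loci were −1.04 and −0.69. SADHU1-1 was at 222, 274 and 260 CPM in WT normal and 92.2, 102 and 117 in WT heat, −1.28 (SE 0.291, adjusted p 0.00181). The hd2b hd2c libraries were at 311, 290 and 213 before and 102, 208 and 74.8 after heat, −1.11 (SE 0.292, adjusted p 0.00523). The heat libraries stayed below the normal ones, although hd2b hd2c heat 2, the library that stood apart, came within a few CPM of hd2b hd2c normal 3. All 4 of SADHU4-1, SADHU1-3, SADHU1-2 and SADHU10-1 fell in both genotypes: SADHU4-1 was at −1.93 in WT and −2.27 in hd2b hd2c, SADHU1-3 at −2.58 and −2.0, SADHU1-2 at −1.79 and −1.96 and SADHU10-1 at −2.11 and −2.24. SADHU2-1 fell furthest, by 3.24 in WT, and in hd2b hd2c from 70 counts to 1 (28.4-fold lower, 4.94 to 1140). It passed the rule only through its normal libraries, so its choice is not independent of that fall. SADHU5-1 was at −0.81 in WT (adjusted p 0.125) and fell by 1.38 in hd2b hd2c, a call lost without hd2b hd2c normal 1 or 3 or heat 3 (highest adjusted p 0.231). SADHU3-2 was at −0.96 (SE 0.344, adjusted p 0.0179) in WT, a call lost without WT normal 2 or WT heat 1 (highest adjusted p 0.139), and fell by 1.07 in hd2b hd2c. Another 9 Sadhu features had 0 to 77 counts and are not among the 122, and the one with 77, SADHU6-1, was called higher in both genotypes.

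Relative to all features, whose medians were −0.14 and −0.12, the MUSTANG genes lay slightly higher. Of 7, 3 were called higher and 1 lower in WT (median 0.14), beside 31.0% and 34.8% of all features. In hd2b hd2c 2 were higher and 0 lower (median 0.30), beside 29.9% and 31.5%. Under library totals the medians of all features were −1.67 and −1.56 and those of the MUSTANG genes −1.40 and −1.14. There 0 were higher and 6 lower in WT, beside 5.10% and 79.1%, and 0 and 5 in hd2b hd2c, beside 4.79% and 78.2%. The difference from those shares was not tested. MUG8 was at 9.09, 7.57 and 8.81 CPM in WT normal and 13.7, 15.8 and 12.6 in WT heat. In hd2b hd2c it was at 8.13, 8.50 and 9.71 and then at 15.8, 17.1 and 16.2. The heat libraries were all above the normal ones, 0.71 (SE 0.161, adjusted p 0.000498) in WT and 0.89 (SE 0.162, adjusted p 5.83e-05) in hd2b hd2c, values that turned to −0.80 and −0.58 under library totals. MUG7 was called higher in both genotypes (0.46 and 0.51), not without WT normal 2 or 3 in WT (highest adjusted p 0.0624) nor without hd2b hd2c heat 2 in hd2b hd2c (0.0925). MUG1 was called higher in WT (0.47), not without WT normal 3 or WT heat 3 (0.0619), and MUG6 was called lower in WT (−0.79), not without WT normal 1 (0.0544).

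The LTR features of the loci were read against the same heat comparisons. Of all tested features, 31.0% were called higher and 34.8% lower in WT (median −0.14), and 29.9% and 31.5% in hd2b hd2c (median −0.12). Of the 19 loci with TGGTATCAGAGC in the start window, 1 was higher and 12 lower in WT (median −1.51), and 2 were higher and 7 lower in hd2b hd2c (median −1.30). Of the 31 with direct repeats, 1 was higher and 20 lower in WT (median −1.27) and 2 higher and 16 lower in hd2b hd2c (median −1.18). The 91 without such repeats had 12 higher and 38 lower in WT (median −0.99), and 12 and 39 in hd2b hd2c (median −0.58). The 30 loci covered to 50% or more by near-identical copies had 6 higher and 11 lower in WT and a median of −1.04, against 7 higher and 47 lower and a median of −1.03 in the other 92. In their surroundings, the median locus had 42.5 coding genes within 100 kb on each side, against 13 for all suffixed features and 55 for plain ones, and the 61 loci with fewer such neighbours had 4 higher and 34 lower in WT, the other 61 had 9 and 24. These counts describe the loci, and no list was tested against another.

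Between genotypes few loci differed at normal temperature. There were 3 higher and 5 lower in the libraries labelled hd2b hd2c, with 114 not called, beside 0.979% and 1.67% of all features (2.65% in either direction), and the median was −0.01, against 0 for all features. Under library totals, 3 were higher and 0 lower, beside 0.366% and 0.138%. Without overlap between the groups, 16 loci were higher and 21 lower (11.7% and 13.7% of all features). After heat 6 were higher and 1 lower, with 115 not called, beside 1.59% and 1.18% of all features (2.76% in either direction), and the median was 0.27 against 0.00495. Library totals gave 3 higher and 0 lower, beside 0.193% and 0.0692%, and the fit without hd2b hd2c heat 2 gave 9 and 2. Without overlap, 15 loci were higher and 7 lower after heat (8.97% and 8.66%). These comparisons share libraries with the heat comparisons above.

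AT5G35935.1, a locus of 6504 bases on chromosome 5, had the smallest adjusted p of the loci in both genotype comparisons. It has direct repeats of 103 bases on either side of its centre, the first of which lies inside the locus. It had 74, 32 and 41 counts in WT normal and 611, 751 and 691 in the normal libraries labelled hd2b hd2c. After heat it had 0, 13 and 13 counts in WT and 98, 17 and 120 in hd2b hd2c, which is 0 to 1.15 CPM beside 5.18 to 6.86. No library of one genotype reached the other genotype at either temperature. The log2 difference was 3.67 (SE 0.294, adjusted p 7.87e-08) at normal temperature and 3.09 (SE 0.406, adjusted p 0.000141) after heat, and both held with each library left out. Heat lowered it in both genotypes, by 1.27 (SE 0.437) in WT, a call lost without WT heat 1 (adjusted p 0.0804), and by 1.86 (SE 0.279) in hd2b hd2c. Its neighbour AT5G35940, 682 bases away on the opposite strand, moved the other way at normal temperature (−2.27, SE 0.573, adjusted p 0.0291).

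SADHU3-2 (AT3G42658.1) was the one Sadhu element called between genotypes. It had 88, 66 and 85 counts in WT normal and 295, 322 and 248 in hd2b hd2c normal, and after heat 8, 22 and 25 in WT and 78, 19 and 65 in hd2b hd2c. In CPM the groups were apart, at 2.32 to 3.78 beside 7.67 to 10.6 before and 0.615 to 2.09 beside 3.72 to 5.79 after heat. The log2 difference was 1.67 (SE 0.280, adjusted p 0.00123) at normal temperature and 1.56 (SE 0.357, adjusted p 0.0202) after heat, the latter not called without WT heat 1 or hd2b hd2c heat 1 (highest adjusted p 0.0960). AT3G42806.1, of the same chromosome, was at 11.5, 9.75 and 11.4 CPM in WT normal and 27.8, 31.0 and 19.5 in hd2b hd2c normal. After heat it was at 12.4, 9.45 and 10.2 in WT and 21.3, 40.2 and 21.0 in hd2b hd2c. Again no libraries of the genotypes overlapped, while heat and normal libraries of each genotype did. The log2 difference was 1.26 (SE 0.203, adjusted p 0.000915) and 1.28 (SE 0.223, adjusted p 0.00256), and neither call was lost with any 1 library left out.

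**Figure D4:**
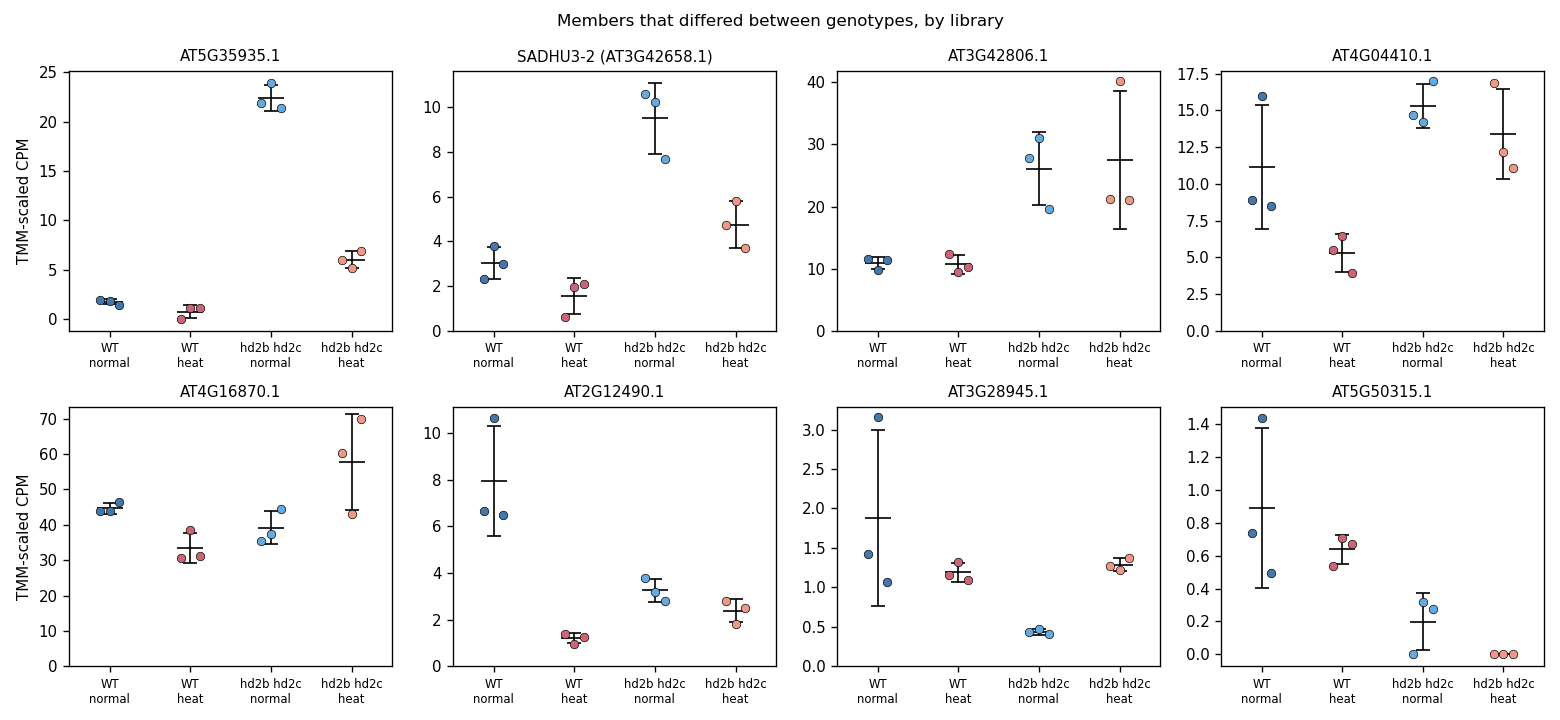
TMM-scaled CPM of 8 loci called in a genotype comparison or in the interaction, by library (points), with the mean and SD of 3 libraries per group (lines). AT5G35935.1 lies at 1.45 to 1.95 CPM in WT normal and at 21.4 to 23.9 CPM in hd2b hd2c normal, and AT4G16870.1 is highest in hd2b hd2c heat.

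The remaining calls between genotypes were smaller or rested on few libraries. After heat AT4G04410.1 was at 5.53, 6.45 and 3.94 CPM in WT and 16.9, 12.2 and 11.1 in hd2b hd2c, 1.36 (SE 0.254, adjusted p 0.00444), not called without hd2b hd2c heat 1 (0.0686), and 99.2% of it is covered by near-identical copies. AT2G06950.1 was at 47.6 to 51.3 CPM in the WT and 60.4 to 73.5 in the hd2b hd2c heat libraries, 0.43 (SE 0.109, adjusted p 0.0333), a call lost without any 1 of WT heat 1, 2 or 3, hd2b hd2c heat 1 or hd2b hd2c normal 2 (highest adjusted p 0.115). AT5G50315.1 had 23 counts over WT heat and 0 over hd2b hd2c heat, at least 7.87-fold lower, and its call was lost in 10 of 12 fits with 1 library left out (highest adjusted p 0.199), all but those without hd2b hd2c heat 2 or hd2b hd2c normal 1. It overlaps ELO3 on the opposite strand, a gene with 30.1 and 33.2 CPM in those groups, and reads of the pair may not be separable. Lower in hd2b hd2c at normal temperature were AT2G07080.1 (−0.57, SE 0.131, adjusted p 0.0166), AT2G12490.1, described below, AT3G28945.1 (−2.06, SE 0.469, adjusted p 0.0153), AT1G35115.1 (−0.86, SE 0.220, adjusted p 0.0326) and AT1G58561.1 (−0.95, SE 0.252, adjusted p 0.0425). AT2G07080.1 lost this call in 5 of 12 fits, without WT normal 1 or 2 or any hd2b hd2c normal library (highest adjusted p 0.131). AT3G28945.1 lost it in 4, without WT normal 2 or any hd2b hd2c normal library (0.206), and AT1G35115.1 in 4, without replicate 1 or 2 of either normal group (0.336). AT1G58561.1 lost it in 8, without any normal library, WT heat 2 or hd2b hd2c heat 1 (0.300). The last overlaps AT1G58602 on the same strand, which fell between the same groups from 161 to 95.5 CPM (−0.75, SE 0.120, adjusted p 0.000771).

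Whether heat acted differently in the genotypes was tested by the interaction term, in which 2 loci were called with a more positive log2 change in hd2b hd2c and 0 with a more negative one, beside 0.148% and 0.188% of all features (0.336% in either direction). At an unadjusted p under 0.05 by the same edgeR test there were 13 and 2, beside 5.25% and 3.64% of all features, and DESeq2 called 3 and 0, beside 0.573% and 0.386%. The median was 0.20, against 0.01 for all features, and under library totals 0 loci were called, beside 0.00989% and 0.0395%. AT4G16870.1, which has the primer site in its window and direct repeats of 130 bases that are 100% identical, was at 43.8, 43.9 and 46.5 CPM in WT normal and 30.7, 38.4 and 31.2 in WT heat. In hd2b hd2c it was at 35.5, 37.5 and 44.5 before and 60.3, 43.0 and 69.9 after heat. It fell in WT without overlap, and it rose in hd2b hd2c, where heat 2 at 43.0 lay below normal 3 at 44.5. The changes were −0.42 (SE 0.142, adjusted p 0.0128), lost without WT heat 1 or 3 (highest 0.0583), and 0.59 (SE 0.141, adjusted p 0.00100), which turned to −0.86 under library totals, and the interaction was 1.01 (SE 0.201, adjusted p 0.0238). That interaction was called in only 3 of 12 fits with 1 library left out, those without WT heat 2, hd2b hd2c normal 3 or hd2b hd2c heat 2, and the highest adjusted p was 0.0975. After heat it was higher in hd2b hd2c by 0.82 (SE 0.145, adjusted p 0.00278), a call made in all 12 such fits but lost under library totals and with the heat libraries fitted alone (adjusted p 0.162 and 0.0641). RPP4 (AT4G16860), a disease resistance gene 68 bases upstream on the same strand, also had a called interaction (1.14, SE 0.213, adjusted p 0.0164). Its means were 51.9 and 51.1 CPM in WT normal and heat and 30.6 and 64.7 in the other genotype. Unlike AT4G16870.1 it was not called with heat in WT (−0.02, adjusted p 0.909) or between genotypes after heat (0.38, adjusted p 0.204), and it was called lower in hd2b hd2c at normal temperature (−0.76, adjusted p 0.00473), and its part in the counts of AT4G16870.1 was not tested.

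AT2G12490.1, the other locus with a called interaction, was at 6.67, 10.7 and 6.47 CPM in WT normal and 1.38, 0.971 and 1.26 in WT heat. In hd2b hd2c it was at 3.80, 3.18 and 2.81 before and 2.79, 1.83 and 2.52 after heat. In WT the groups were far apart; in hd2b hd2c the highest heat library lay just under the lowest normal one. The heat change was −2.70 (SE 0.308, adjusted p 6.95e-08) in WT and −0.37 (SE 0.291, adjusted p 0.274) in hd2b hd2c, an interaction of 2.32 (SE 0.428, adjusted p 0.0149). The locus was lower in hd2b hd2c at normal temperature (−1.27, SE 0.253, adjusted p 0.00558), a call lost without WT normal 2 (0.0910). The interaction was lost without WT normal 2, hd2b hd2c normal 2 or hd2b hd2c heat 1 (highest adjusted p 0.0732). Near-identical copies cover 76.7% of it, and the one feature that matches that much had 2 counts in all.

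**Figure D5:**
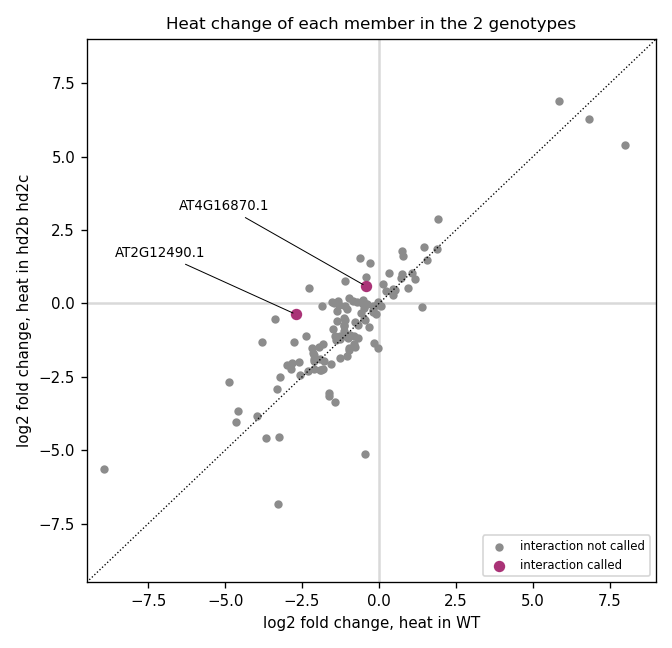
Log2 fold change with heat in WT (horizontal) and in the libraries labelled hd2b hd2c (vertical) for the 122 loci; the dotted line marks equal change and purple points a called interaction. AT4G16870.1 lies at −0.42 and 0.59, AT2G12490.1 at −2.70 and −0.37.

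A list of 29 genes of transposon silencing and DNA methylation, the demethylase ROS1 among them, was followed beside the loci. In WT 10 were higher and 11 lower after heat (median −0.21), and in hd2b hd2c 12 were higher and 6 lower (median −0.14). Beside 31.0% and 34.8% of all features in WT and 29.9% and 31.5% in hd2b hd2c, the WT counts lie near the background. Under library totals 0 were higher in either genotype, while 24 were lower in WT and 20 in hd2b hd2c, beside 79.1% and 78.2% of all features. VIM1, which recruits maintenance methylation, rose by 1.29 in WT and 1.52 in hd2b hd2c, and NRPD2, the second subunit shared by polymerases IV and V, by 1.2 and 1.59; under library totals VIM1 was at −0.24 and 0.05 and NRPD2 at −0.32 and 0.11. AGO4, the small RNA binding Argonaute of that pathway, rose by 1.14 and 1.31, and histone H1.1 by 1.62 and 1.15; under library totals AGO4 was at −0.39 and −0.22 and H1.1 at 0.09 and −0.37. HDA6, a histone deacetylase of silent repeats, rose by 1.12 and 1.16, and was at −0.41 and −0.32 under library totals. Called lower in both genotypes under each of the 4 scalings were 6 genes: FAS1, a chromatin assembly factor subunit (−2.29 and −2.44), RDR6, an RNA-dependent RNA polymerase (−1.17 and −1.11), the non-CG methyltransferases CMT2 (−1.50 and −0.84) and CMT3 (−0.74 and −0.64), the histone methyltransferase ATXR5 (−1.11 and −1.13) and the demethylase ROS1 (−0.84 and −0.97). Between genotypes 2 were called lower in hd2b hd2c at normal temperature by edgeR, NRPE1 (−0.69, adjusted p 0.0319) and CMT2 (−0.55, adjusted p 0.0407), beside 1.67% of all features. After heat 1 was called lower, ROS1 (−0.78, adjusted p 0.0496), beside 1.18%. None of these calls held under library totals. By edgeR 0 of 29 had a called interaction, beside 0.336% of all features.

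The loci just inside the threshold of 100 counts were AT1G48710.1 with 100, AT5G53815.1 with 104 and AT2G24760.1 with 109, and those just outside it were AT5G36937.1 with 96, AT4G12200.1 with 93 and AT5G13205.1 with 92. AT4G12200.1 had 37 counts in WT normal, 0 in WT heat, 55 in hd2b hd2c normal and 1 in hd2b hd2c heat. AT5G53815.1, inside the threshold, had 34, 15, 48 and 7 in that order.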

How the data were processed

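RNA of 12 seedling libraries was sequenced. The submitters' processing notes name HISAT2 2.1.0, featureCounts 2.0.3 and the build TAIR10. The sources used here do not state the settings for strand or multiple alignments. The authors deposited raw counts of reads per feature, whole numbers without normalization, in 1 table. Every suffixed row with 100 or more counts in total was a member. Members and lists were chosen with earlier results of these data known.

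All features were fitted with edgeR 4.0.16 (R 4.3.3), robust quasi-likelihood F test, two-sided, 4 groups in 1 fit, after filterByExpr (minimum count 10, total 15) and TMM scaling. P-values were adjusted by Benjamini-Hochberg over 20232 features and called under 0.05. SE is the absolute log2 fold change over the square root of F. The scripts were tested on simulated data. Named loci were the 12 largest totals, up to 10 called per direction or comparison, those at 0 in a group with 50 or more counts in another, and neighbours of the threshold. A floor of 3 counts per group served against 0. Sequences, copies (blastn 2.17.0) and repeats came from TAIR10.1 (RefSeq) by identifier. Alternatives included DESeq2 1.42.0, other scalings, no filter and each library left out.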

Additional observations from a re-analysis of the deposited data

Results flagged for a closer look

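AT4G16870.1 and AT2G12490.1 were flagged because the heat response differed between genotypes by a test of the difference, with interactions of 1.01 and 2.32 on the log2 scale (edgeR quasi-likelihood test, adjusted p 0.0238 and 0.0149). AT4G16870.1 fell in WT and rose in the libraries labelled hd2b hd2c (−0.86 under library totals), whereas AT2G12490.1 fell in WT and was at −0.37 in those libraries.

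Suffixed loci under 100 counts, outside the comparisons, also held a signal above that of the normal libraries in 3 cases. Of 21 such loci tested, 3 were called higher and 9 lower after heat in WT, and 3 higher and 6 lower in hd2b hd2c. Of all tested features, 31.0% were called higher and 34.8% lower in WT, and 29.9% and 31.5% in hd2b hd2c. AT5G36937.1, with 96 counts, had 14 in WT normal, 40 in WT heat, 7 in hd2b hd2c normal and 35 in hd2b hd2c heat. AT5G13205.1, with 92 counts, had 3, 44, 11 and 34 in that order. It matches 100% of AT1G48710.1 at 99.3% identity, and its counts are already in the sum given with that locus. AT3G02515.1 (SADHU6-1), with 77 counts, had 1, 27, 0 and 49, the opposite direction to the Sadhu elements among the 122 loci. All 3 were called higher after heat in both genotypes by edgeR's quasi-likelihood test. Whether that signal comes from these loci or from copies was not tested.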

How the results depend on the processing

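Of 1078 alternatives for 57 results on single loci picked by the naming rule, 968 kept direction and call, 103 lost the call and 7 changed sign. All 7 were under library totals: in WT AT5G55896.1 −0.79, AT4G20730.1 −0.0101, AT2G04460.1 −0.18, AT5G14830.1 −0.34 and AT1G21260.1 −0.59, and in hd2b hd2c AT5G55896.1 −0.49 and AT4G20730.1 −0.0888. Other loci called higher turned below 0 there too, 8 in WT and 6 in hd2b hd2c in all. Library totals gave 3 higher and 104 lower loci in WT and 4 and 99 in hd2b hd2c, 0 lower between genotypes at normal temperature, 3 higher and 0 lower after heat, and 0 interactions; scaling by totals shifts all features, as its medians show. Between genotypes, the compared groups fitted alone gave 5 higher and 13 lower at normal temperature and 3 higher and 0 lower after heat. With no filter, 8 were lower between genotypes at normal temperature and 2 after heat, and there were 4 interactions. Loci lower in hd2b hd2c than in WT after heat numbered 0 with DESeq2 factors and 2 with the DESeq2 test. The cause was not tested. A fit with the replicate number as a block, which is not a pairing since deviations of equally numbered libraries correlated at −0.132 to 0.146, gave 13 higher and 59 lower in WT, 13 and 52 in hd2b hd2c, 3 and 4 between genotypes at normal temperature, 5 and 0 after heat, and 3 and 0 interactions. Without 1 library, loci called ranged from 9 to 14 higher and 54 to 64 lower in WT, 13 to 15 and 47 to 57 in hd2b hd2c, 3 to 4 and 0 to 8 between genotypes at normal temperature, 3 to 9 and 0 to 2 after heat, and 0 to 5 and 0 to 0 interactions. The share of counts without the most abundant locus was 0.189% in WT normal, 0.0332% in WT heat and 0.184% in hd2b hd2c normal, and 0.234% in hd2b hd2c normal without ribosomal RNA. Upper-quartile factors gave summed CPM of 1504, 617, 1466 and 786 in WT normal, WT heat, hd2b hd2c normal and hd2b hd2c heat. Few counts per locus in heat libraries, above all hd2b hd2c heat 2, limit what could be detected.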
